A study of Mus musculus with 4 samples.

Results

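Immediate early genes are transcribed within minutes of a stimulus without new protein synthesis, and most of their mRNAs are short-lived. The Fos and Jun proteins among them pair through leucine zippers to form AP-1, which binds DNA at enhancers of protease, cytokine and growth genes. In macrophages these genes respond quickly to microbial products, adhesion and growth factors, and Smad proteins of the transforming growth factor beta pathway can act together with AP-1 on shared target genes. The 10 genes described here are the Fos genes Fos and Fosb, the Jun genes Jun, Junb and Jund, the related factor Atf3, the zinc finger activator Egr1, and Ier2, Btg2 and Zfp36. They were taken as every probe set whose only gene symbol in the platform annotation is one of these names. All 10 were on the array, among 8251 genes in all, with 15 of its 12488 probe sets, and 12 of the 15 passed the level filter used for testing.

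The cells were thioglycolate-elicited peritoneal exudate cells of female BALB/c mice aged 6 to 8 weeks, harvested 4 days after 2 ml of 3% thioglycolate. They were cultured overnight in serum-free medium with porcine TGFb2 (5 ng, with no volume given) or with PBS, its vehicle, and the adherent cells, over 95% positive for the macrophage marker F4/80, gave the RNA. Each group held 2 arrays, called PBS replicates 1 and 2 and TGFb2 replicates 1 and 2. Nothing in the labels says that the replicates came from separate mice or cultures. The p-values therefore reflect only how far these arrays lie apart, and that spread may be technical.

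The 4 arrays had median MAS5 signals of 40.1 to 45.6 and the same trimmed mean. Of 11 macrophage markers on the array, all 11 lay above the level filter and 0 passed the limma test (6 of 11 at an unadjusted p under 0.05, where 12.2% of all tested genes had one), with summed signals of 22614 and 22910 with PBS and 24528 and 24711 with TGFb2. The largest differences among them were those of Fcgr1, a high-affinity IgG receptor, at 177.6 and 161.5 with PBS and 480.4 and 315.8 with TGFb2 (1.13, adjusted p = 0.067, and 0.042 with the mean of a gene's tested probe sets), and of Mertk, a receptor for apoptotic cells, at 37.4 and 47.2 with PBS and 80.7 and 85.1 with TGFb2 (0.78, adjusted p = 0.18). Some markers of other cells also passed. Of 10 tested fibroblast and mesothelial markers, Col1a1, Fbln2 and Col5a2 rose and Dcn fell (limma adjusted p of 0.0215 to 0.0439), where 1.19% of all tested genes passed. At an unadjusted p under 0.05 there were 5 of the 10. The summed signal of these markers was 1739 to 2504 with PBS and 1847 to 2178 with TGFb2. Of 5 tested neutrophil markers, S100a8 rose, from 128.7 and 210.9 with PBS to 550.6 and 679.2 with TGFb2 (adjusted p = 0.0244). The summed signal of the 12 neutrophil markers on the array was 641 and 674 with PBS and 1077 and 1127 with TGFb2. Without S100a8 it was 513 and 463 with PBS and 526 and 448 with TGFb2. Csf3r, Lcn2, Camp and Elane were tested and did not pass, and Mpo, Mmp8, Ltf, Cxcr2, S100a9, Ly6g and Ngp lay below the filter. Each of these calls was lost without TGFb2 replicate 1 (adjusted p of 0.12 to 0.18) and without TGFb2 replicate 2 (0.0525 to 0.13), and those of Fbln2 and Col5a2 also without PBS replicate 2 (0.0803 and 0.14). Of the eosinophil and mast cell, lymphocyte and dendritic cell lists 0 members passed (1, 0 and 1 at an unadjusted p under 0.05). Their largest differences were 0.76 for Cpa3 and 0.43 for Tpsb2, both of mast cells (adjusted p = 0.41 and 0.44), -0.61 for Ighm and 0.29 for Pax5, both of B cells (0.45 and 0.77), and -0.90 for Cd83 and 0.06 for Flt3, both of dendritic cells (0.10 and 0.97). The part of these cells in the signals below was not tested, and a change in the number of such cells cannot be told apart in bulk RNA from a change in RNA per cell.

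The stretch upstream of each gene's start was available from RefSeq (GRCm38.p6) for 8 of the 10 genes, all but Egr1 and Ier2. The 250 bases before the start are printed for 4 of them, Jund, Btg2, Fos and Atf3, since a tested probe set of each had no overlap between the groups. Each is written 5′ to 3′ along the gene's strand, and capitals mark matches to the motifs named below.
Jund, chr8:70697489-70697738, plus strand: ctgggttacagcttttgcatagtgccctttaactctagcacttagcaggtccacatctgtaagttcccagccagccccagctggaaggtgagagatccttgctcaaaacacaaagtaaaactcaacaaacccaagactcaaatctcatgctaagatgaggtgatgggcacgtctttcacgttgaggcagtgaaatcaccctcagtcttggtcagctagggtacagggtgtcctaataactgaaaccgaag
Btg2, chr1:134079156-134079405, minus strand: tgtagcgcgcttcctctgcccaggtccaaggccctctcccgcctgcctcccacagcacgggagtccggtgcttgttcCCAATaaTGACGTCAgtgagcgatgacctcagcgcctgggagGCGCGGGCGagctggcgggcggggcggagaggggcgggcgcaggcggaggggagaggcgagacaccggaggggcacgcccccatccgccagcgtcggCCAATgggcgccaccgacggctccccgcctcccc
Fos, chr12:85473640-85473889, plus strand: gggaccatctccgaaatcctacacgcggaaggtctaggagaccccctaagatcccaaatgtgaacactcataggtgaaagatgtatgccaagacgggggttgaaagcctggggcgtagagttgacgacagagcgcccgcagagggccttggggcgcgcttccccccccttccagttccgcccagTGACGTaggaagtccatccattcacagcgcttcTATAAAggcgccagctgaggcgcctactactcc
Atf3, chr1:191183334-191183583, minus strand: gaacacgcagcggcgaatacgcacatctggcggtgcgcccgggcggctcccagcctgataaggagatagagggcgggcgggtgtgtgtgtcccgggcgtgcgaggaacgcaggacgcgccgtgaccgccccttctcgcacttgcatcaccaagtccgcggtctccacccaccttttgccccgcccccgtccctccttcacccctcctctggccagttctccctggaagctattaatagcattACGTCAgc

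The motifs were searched on both strands in these 250 bases. The core of the cyclic AMP response element, which ATF, CREB and some AP-1 dimers bind, was searched as TGACGT and occurred in 3 of the 8 promoters, those of Fos, Btg2 and Atf3, and in 6.47% of 32851 promoters in the table. In Fos it lay at bases -66 to -61 from the start, with a TATA box (TATAAA) at -33 to -28. Its full palindrome, TGACGTCA, which contains the core on both strands, occurred in Btg2 alone of the 8, at -166 to -159, and in 1.55% of all promoters. The AP-1 motif TGANTCA occurred in 0 of the 8 and in 6.75% of all, and the Smad palindrome GTCTAGAC in 0 of the 8 and in 0.17% of all. The EGR motif GCGNGGGCG was found in Btg2, Fosb and Zfp36 and in 4.70% of all, and the CCAAT box (CCAAT) in Btg2, Jun and Junb and in 33.8% of all. The TATA box letters were in 1 of the 8, Fos, and in 12.4% of all, and a CArG box, the binding letters of serum response factor, was in Zfp36 alone and in 1.47% of all. The Jund stretch held none of these motifs. These matches describe letters only, and a missing match says nothing about a factor beyond this window.

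After overnight culture, 0 of the 12 tested probe sets of these genes passed an adjusted p of 0.05 with TGFb2 against PBS (limma with Benjamini-Hochberg adjustment), where 1.17% of the 7453 tested probe sets passed, 0.805% with higher and 0.362% with lower signals. At an unadjusted p under 0.05 there were 3 of 12, those of Jund, Btg2 and Ier2, against 11.7% of all. The groups did not overlap for 5 of the 12, which is 41.7%, against 42.9% of all tested probe sets. Both TGFb2 signals were above both PBS signals for 3 of the 12 (21.1% of all) and below for 2 (21.8% of all). The median difference on the scale log2(signal + 15) was 0.09 for the 12 and -0.00088 for all, and the median size of the difference regardless of sign was 0.14 and 0.19. The 12 differences ran from -0.78 for Btg2 to 0.49 for Ier2. The 95% interval of the difference lay within 2-fold in both directions for 11 of the 12, all but Btg2, against 82.2% of all tested probe sets. That count was 7 without TGFb2 replicate 1, where Jund, Zfp36, Egr1 and Ier2 also lay outside, beside 75.8% of all tested probe sets. It was 8 without PBS replicate 1 (60.9% of all), 9 without PBS replicate 2 (62.3%) and 10 without TGFb2 replicate 2 (71.6%). With a pseudocount of 1 it was 9, beside 67.4% of all. The count of calls over all probe sets, 87, was 55 when PBS replicate 1 was left out, 49 for PBS replicate 2, 10 for TGFb2 replicate 1 and 21 for TGFb2 replicate 2, and the members' count was 0 each time.

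**Figure D1:**
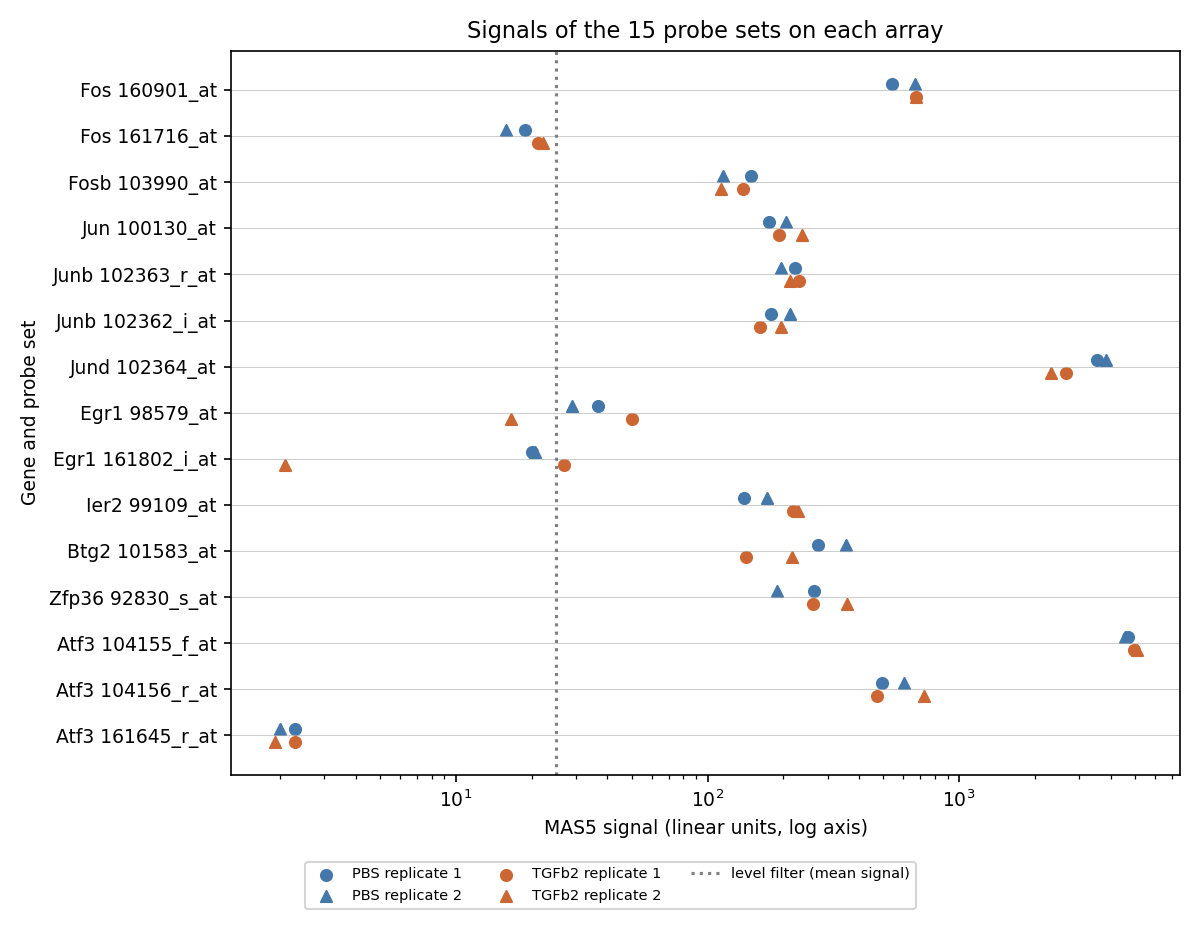
MAS5 signal (log axis) of each of the 15 probe sets on the 4 arrays, circles for replicate 1 and triangles for replicate 2, PBS in blue and TGFb2 in orange; the dotted line is the level filter on the mean signal. The groups do not overlap for Jund (PBS 3534 and 3833, TGFb2 2653 and 2311), Btg2, Ier2, both Fos probe sets and the brightest Atf3 probe set, and the 4 signals interleave for the others. For the brighter Fos probe set the groups nearly touch (670.2 on PBS replicate 2, 672.5 on TGFb2 replicate 1). Of all tested probe sets 42.9% had no overlap.

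Of the Fos genes, whose products need a Jun partner to bind DNA, Fos had signals of 541.5 and 670.2 with PBS and 672.5 and 674.8 with TGFb2. Both TGFb2 arrays lay just above the higher PBS array, so the difference rested on PBS replicate 1. It was 0.16 ± 0.16 (SE) on the log2 scale, with an interval of -0.22 to 0.54 (limma adjusted p = 0.77), and 0.0072 without PBS replicate 1. A second, dim probe set of Fos read 18.8 and 15.8 with PBS and 21.1 and 22.1 with TGFb2, below the level filter, and was not tested. Fosb, whose protein also pairs with Jun proteins, had signals of 148.8 and 114.9 with PBS and 138.5 and 113.4 with TGFb2. The 2 groups covered almost the same range, and the difference was -0.06 ± 0.20 (SE, limma adjusted p = 0.96).

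The Jun genes, whose proteins can pair with each other as well as with Fos, had overlapping groups for Jun and Junb and separate groups for Jund. Jun, the best known activator of the family, had signals of 175.0 and 205.7 with PBS and 192.7 and 238.1 with TGFb2. These overlap, and the difference was 0.16 ± 0.19 (SE, limma adjusted p = 0.79). It ran from 0.020 without TGFb2 replicate 2 to 0.31 without TGFb2 replicate 1 (adjusted p = 0.97 and 0.62). Junb, which often counters Jun and is induced early by TGF-beta in many cell types, was read by a pair of probe sets that differed in sign. The first (suffix _r_at) gave 223.7 and 196.1 with PBS and 231.3 and 213.6 with TGFb2. The second (suffix _i_at) gave 178.7 and 212.8 with PBS and 161.1 and 196.5 with TGFb2. Their differences were 0.08 ± 0.17 and -0.12 ± 0.19 (SE, limma adjusted p = 0.91 and 0.86), so neither exceeded the spread between arrays.

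Jund, the Jun gene that is usually expressed in resting cells rather than induced, was the member with the smallest p. Its signals were 3534 and 3833 with PBS and 2653 and 2311 with TGFb2. Both TGFb2 arrays were below both PBS arrays, with a mean of 3684 ± 212 (SD, n = 2) with PBS and 2482 ± 242 with TGFb2, a PBS level 1.48 times that with TGFb2. The log2 difference was -0.57 ± 0.12 (SE), with an interval of -0.86 to -0.28. It did not pass the adjustment over all probe sets (limma adjusted p = 0.095, unadjusted p = 0.00202). Its p ranked 159th of the 7453 tested, and 9.67% of them had a larger difference in either direction. Without each array in turn the difference ran from -0.67 to -0.47 (adjusted p of 0.18 to 0.41).

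Set against its relatives within the same arrays, the Jund signal was lower with TGFb2 too. This largely restates the Jund difference itself, -0.57, since those of Jun and the Junb probe set used here were 0.16 and 0.08. The Jund value minus the Jun value on the scale log2(signal + 15), which has a meaning only from one array to another, was 4.22 and 4.12 with PBS and 3.68 and 3.20 with TGFb2. The Jund value minus that of the Junb probe set ending in _r_at was 3.89 and 4.19 with PBS and 3.44 and 3.35 with TGFb2. Both differences were lower on each TGFb2 array than on each PBS array, by 0.73 and 0.65 on average. These pairs were picked after the signals were seen, and an exact two-sided permutation test of 2 against 2 arrays cannot give less than the p = 0.33 found, so they are given as descriptions.

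Atf3, a stress-induced factor of the same leucine zipper class that mostly represses inflammatory genes, had 3 probe sets at very different signals. The brightest (suffix _f_at) read 4673 and 4584 with PBS and 4967 and 5079 with TGFb2. Its groups did not overlap, but the difference was only 0.12 ± 0.10 (SE), with an interval of -0.11 to 0.35 (limma adjusted p = 0.71). The suffix of this probe set marks probes that can match related sequences, so its level need not be that of Atf3 alone. The second (suffix _r_at) read 494.1 and 604.4 with PBS and 470.9 and 725.6 with TGFb2, a difference of 0.10 ± 0.23 (SE, limma adjusted p = 0.92), with the 2 TGFb2 arrays on either side of the PBS arrays. The third read 1.9 to 2.3 on all 4 arrays, below the filter, and was not tested.

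Egr1, a zinc finger activator driven by serum response factor, was dim. Its tested probe set read 36.7 and 29.0 with PBS and 49.9 and 16.6 with TGFb2. The TGFb2 arrays were the highest and the lowest of the 4, and the difference was -0.07 ± 0.38 (SE), with the widest interval of the members, -0.95 to 0.80 (limma adjusted p = 0.97). A second probe set, below the filter, read 20.0 and 20.7 with PBS and 26.9 and 2.1 with TGFb2, again with TGFb2 replicate 1 highest and TGFb2 replicate 2 lowest. Leaving out TGFb2 replicate 2 gave 0.44 for the tested probe set, and leaving out TGFb2 replicate 1 gave -0.59 (adjusted p = 0.48 and 0.54).

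Ier2, a small nuclear protein of the immediate early response, was the member with the largest positive difference. Its signals were 139.2 and 172.2 with PBS and 218.5 and 228.2 with TGFb2. Both TGFb2 arrays were above both PBS arrays, with means of 155.7 ± 23.3 and 223.4 ± 6.86 (SD, n = 2). The log2 difference was 0.49 ± 0.18 (SE), with an interval of 0.07 to 0.91 (limma adjusted p = 0.35), and 13.0% of the tested probe sets had a larger one in either direction. It ran from 0.35 without PBS replicate 1 to 0.63 without PBS replicate 2 (adjusted p = 0.92 and 0.53, and 0.37 to 0.92 without each array in turn).

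Btg2, an antiproliferative protein that recruits the deadenylase complex to mRNAs, was the member with the largest difference. Its signals were 274.8 and 354.3 with PBS and 142.1 and 217.2 with TGFb2. Both TGFb2 arrays were below both PBS arrays, and the arrays within a group also lay far apart. The means were 314.6 ± 56.2 with PBS and 179.7 ± 53.1 with TGFb2 (SD, n = 2), a PBS level 1.75 times that with TGFb2. The log2 difference was -0.78 ± 0.24 (SE), with an interval of -1.32 to -0.23 (limma adjusted p = 0.22), and 4.31% of the tested probe sets had a larger one in either direction. It ran from -1.06 without TGFb2 replicate 2 to -0.49 without TGFb2 replicate 1 (adjusted p = 0.13 and 0.48, and 0.13 to 0.69 without each array in turn).

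Zfp36, also called tristetraprolin, binds AU-rich elements in cytokine mRNAs and sends them to decay. Its signals were 263.8 and 188.6 with PBS and 263.4 and 359.0 with TGFb2. PBS replicate 1 and TGFb2 replicate 1 were nearly equal, so the groups touched. The log2 difference was 0.44 ± 0.23 (SE), with an interval of -0.09 to 0.96 (limma adjusted p = 0.52). It was 0.21 without PBS replicate 2, 0.22 without TGFb2 replicate 2, 0.66 without PBS replicate 1 and 0.65 without TGFb2 replicate 1 (adjusted p of 0.42 to 0.99). Among the members outside AP-1, Ier2 and Btg2 lay on opposite sides of 0. The Btg2 value minus the Ier2 value on the scale log2(signal + 15) was 0.91 and 0.98 with PBS and -0.57 and -0.07 with TGFb2, a pair also picked after the signals were seen.

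**Figure D2:**
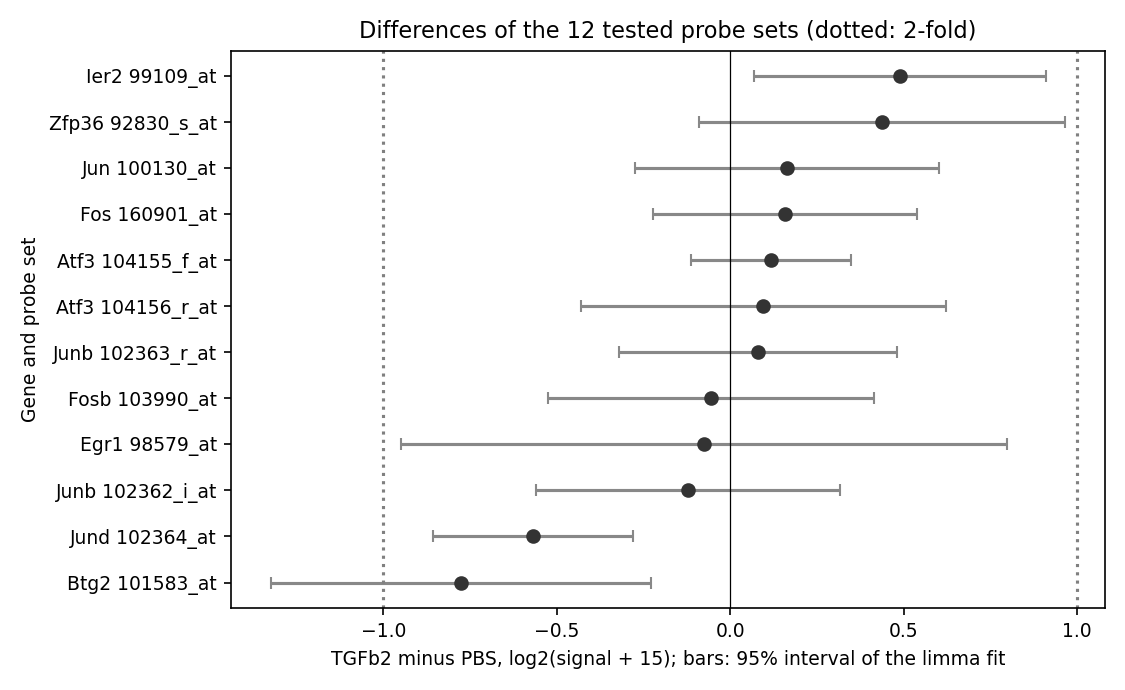
Difference of TGFb2 minus PBS on the log2(signal + 15) scale for the 12 tested probe sets (points) with the 95% interval of the limma fit (bars); dotted lines mark 2-fold in each direction. Jund (-0.57) and Btg2 (-0.78) have intervals below 0 and Ier2 (0.49) above 0, and the other 9 intervals cross 0.

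Other factors of the same DNA-binding class also held no call. Of 27 other AP-1 and leucine zipper genes on the array, 23 were tested and 0 passed (limma, 4 at an unadjusted p under 0.05). Of all 5635 tested genes 1.19% passed and 12.2% had an unadjusted p under 0.05. Each gene is counted here and in the lists below by its brightest tested probe set. The median difference of the 23 genes was -0.05, against 0.0020 for all tested genes, and the AP-1 genes Fosl1 and Fosl2 lay below the filter. The largest differences were those of Cebpa, a myeloid lineage factor, with 1995 ± 436 and 3860 ± 909 (SD, n = 2, PBS then TGFb2, here and below; adjusted p = 0.088, and 0.036 without PBS replicate 2), and of its relative Cebpg, with 172.5 ± 22.5 and 278 ± 27.4 (adjusted p = 0.20).

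Among 38 other immediate early genes on the array, 32 were tested, of which 1 rose, 0 fell and 31 did not pass, with 10 at an unadjusted p under 0.05, where 12.2% of all tested genes had one. Genes higher with TGFb2 made up 0.87% of all tested genes at this threshold and lower ones 0.319%. The gene that rose was Sgk1, a serum- and glucocorticoid-induced kinase, from 1656 and 1819 with PBS to 2967 and 2898 with TGFb2, a log2 difference of 0.75 ± 0.12 (SE, limma adjusted p = 0.0403). Its call was lost without each of the 4 arrays in turn (adjusted p of 0.078 to 0.18). The list's median difference was -0.12, and 20 of the 32 differences were negative. They ran from -1.05 to 1.82, and the largest, a rise in a gene not named here, did not pass. Some members, singled out after their values were seen, had large differences that did not pass. Dusp1, a phosphatase that switches off p38 and JNK, read 777.7 and 552.8 with PBS and 354.8 and 267.9 with TGFb2 (-1.05, adjusted p = 0.080). Plk2, a polo-like kinase, read 2988 and 2485 with PBS and 1669 and 1508 with TGFb2 (-0.77, adjusted p = 0.055). Klf10, first described as a TGF-beta-inducible early gene, read 263.3 and 273.8 with PBS and 414.0 and 437.6 with TGFb2 (0.64, adjusted p = 0.14). In each of these 3 genes the groups did not overlap, which was also so for 43.9% of all tested genes.

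The kinases and factors upstream of AP-1 gave 0 calls among 25 tested of 31 on the array (limma, 1 at an unadjusted p under 0.05, where 12.2% of all tested genes had one). Their median difference was -0.15, with 17 of 25 negative, and the groups did not overlap for 4 with higher and 11 with lower signals, 15 of 25 where 43.9% of all tested genes had no overlap. The largest differences were in dim probe sets, Map3k4, a kinase upstream of p38 and JNK, at 51.3 ± 0.35 and 22.9 ± 4.67 (adjusted p = 0.25) and Braf, a kinase of the ERK cascade, at 33.95 ± 3.04 and 18.0 ± 14.4 (adjusted p = 0.58).

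Genes known as AP-1 targets held 2 that rose, Timp1 and Plau. Of 28 on the array 21 were tested, and 0 fell and 19 did not pass, with 5 at an unadjusted p under 0.05. Over all tested genes 0.87% passed with higher and 0.319% with lower signals, and 12.2% had an unadjusted p under 0.05. These shares stand beside the counts of both lists described here. Timp1, an inhibitor of matrix metalloproteinases, read 233.5 and 447.6 with PBS and 2053 and 1316 with TGFb2 (2.29 ± 0.32, SE, limma adjusted p = 0.0265). Plau, the urokinase plasminogen activator, read 320.4 and 351.4 with PBS and 777.3 and 907.7 with TGFb2 (1.29 ± 0.16, adjusted p = 0.0215). Both calls were lost without either TGFb2 array (adjusted p of 0.080 to 0.17 over both genes). The list's median was 0.10, and both genes are also targets of other pathways. Of 16 genes listed as Egr1 targets and corepressors, all tested, 2 rose, 0 fell and 14 did not pass, with 4 at an unadjusted p under 0.05 and a median of 0.20. They were Plau again and Id3, a dominant negative helix-loop-helix protein that Smad proteins induce directly, at 29.5 and 25.0 with PBS and 171.1 and 119.3 with TGFb2 (limma adjusted p = 0.0202, and 0.12 without TGFb2 replicate 1).

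Partners and relatives of Zfp36 and Btg2 in mRNA decay gave 0 calls among 25 tested of 26 on the array (limma, 0 also at an unadjusted p under 0.05), with a median of -0.06. The largest differences were those of Cnot6l, a deadenylase subunit, at 40.9 ± 3.89 and 23.8 ± 10.6 (adjusted p = 0.54), and Ywhaz, a 14-3-3 protein, at 1346 ± 104 and 1101 ± 722 (adjusted p = 0.72). Transcripts reported to be bound by Zfp36 had a lower median, -0.52, which ran from -0.54 to -0.42 over the other pseudocounts and normalizations. Of 18 on the array 13 were tested, and 0 rose, 1 fell and 12 did not pass, with 6 at an unadjusted p under 0.05 (12.2% of all tested genes). The 1 that fell was Cxcl2, a neutrophil chemoattractant, from 91.7 and 88.3 with PBS to 28.7 and 22.8 with TGFb2 (limma adjusted p = 0.0403), a call lost without each of the 4 arrays in turn (0.097 to 0.22). This list holds Zfp36 itself and shares Dusp1, Tnf and others with the lists above, and its chemokines were known from earlier results to be low with TGFb2 on these arrays. The 5 genes called in these lists, Sgk1, Timp1, Plau, Id3 and Cxcl2, also lost their calls when no level filter was applied (adjusted p of 0.084 to 0.17) and without the intensity trend of the variance (0.054 to 0.18).

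**Figure D3:**
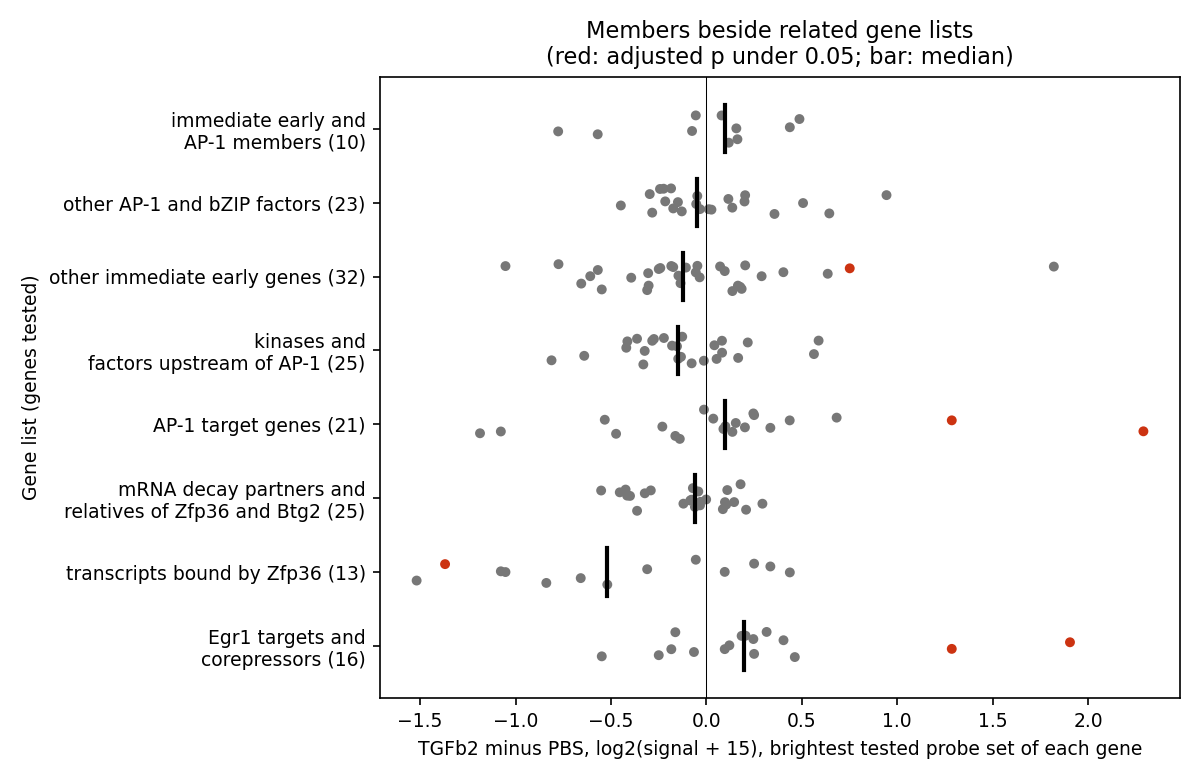
Difference of TGFb2 minus PBS on the log2(signal + 15) scale for each tested gene of the members and of 7 related lists, 1 point per gene by its brightest tested probe set; black bars are medians and red points passed an adjusted p of 0.05. The 10 members hold no red point and have a median of 0.10, and the transcripts bound by Zfp36 have the lowest median, -0.52. The chemokines in that list were known from earlier results of these same arrays to be low with TGFb2.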

How the data were processed

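Biotin-labelled cRNA of 4 samples was hybridised to Affymetrix arrays. The deposited values are MAS5 signal intensities on a linear scale, per the submitters' processing notes, scaled by the authors to one 2% trimmed mean (150.1). Detection calls and scanner files were not used here, so no probe set was known to be present or absent and the number of arrays limits the precision. The intensities were taken to log2(signal + 15), 15 being 10% of the trimmed mean, which understates differences of dim genes. After leaving out 66 controls, probe sets with a mean signal at or above the 40th percentile (25.1) were tested. limma 3.58.1 in R 4.3.3 (lmFit, eBayes with an intensity trend) compared TGFb2 with PBS over all 4 arrays, two-sided, with Benjamini-Hochberg adjustment over 7453 probe sets and a threshold of 0.05. Symbols came from the platform annotation; 10817 of 10833 single-symbol probe sets were found by gene ID in the GRCm38.p6 table and 0 differed. In 20 simulated data sets of 7453 probe sets, 200 of them changed, 37.8% of the 2-fold and 90.8% of the 4-fold changes put in were called. Of the calls 5.06% were false, and these shares hold for the simulated settings only. Every member was named, and from each list up to 3 genes per direction past the threshold or, with none past, the 2 with the largest difference; a few others are named as chosen after their values were seen. Alternatives changed the pseudocount, normalization, filter, variance model, replicate block, probe sets of a gene and the arrays included. The members, lists and rules were chosen with earlier results of these data known.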

Additional observations from a re-analysis of the deposited data

How the results depend on the processing

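For the members, 0 probe sets passed under each alternative run but one, the replicate number as a block, where 2 passed, Jund (adjusted p = 0.0154, in a range of 0.0154 to 0.41 over its alternatives) and Btg2 (0.0219, in a range of 0.0219 to 0.69). The labels give the numbers but not that they mark shared material, so the block was not used in the fit reported. The deviations of same-numbered arrays from their group means correlated at 0.14. With 2 pairs this value cannot settle whether the arrays are paired. Of the other genes named by the rule, Fcgr1, Cd83 and Cebpa passed with the block though not in the fit reported (limma adjusted p = 0.0019, 0.0074 and 0.0002). Dusp1, Plk2 and Klf10, named after their values were seen, were not looked up under the alternatives. The difference between replicates had the same sign in both groups for 9 of the 12 tested member probe sets (75.0%) and for 54.5% of all. For Jund the signs were opposite, and the SE of its difference was 0.126 with the block and 0.124 without it. Calls over all probe sets were 87, and 324 with the block, 56 with a pseudocount of 1, 6 without the filter, 13 without the intensity trend and 10 to 55 without each array in turn. A filter on the mean log2 value, added after seeing the data, gave 88. The sign of the difference turned without 1 array for Fosb (-0.22 to 0.11), Egr1 (-0.59 to 0.44), the Junb probe sets ending in _r_at (-0.0086 to 0.17) and _i_at (-0.25 to 0.0099), the brighter Atf3 probe set ending in _r_at (-0.21 to 0.40), Pax5 (-0.048 to 0.62), Flt3 (-0.37 to 0.50) and Ywhaz (-1.17 to 0.26). That of Junb also turned with the mean of its probe sets (-0.021). The cause was not tested in any of these cases. Of the 10 named genes past the threshold, none of them members, all 10 lost the call without the filter and without the intensity trend. Jund, Btg2, Ier2, Zfp36, Fos, Jun and the Atf3 probe set ending in _f_at kept their sign under every alternative run.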
